A study of Mus musculus with 45 samples.

Results

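Trh, Pdyn, Tac2, Crhbp and Dbh are 5 genes of signalling by neuropeptides and noradrenaline. They were chosen by name from a table of 11220 genes, and their levels were followed through 15 groups of mouse embryonic stem cells differentiating toward spinal dorsal interneurons. Trh, Pdyn and Tac2 encode neuropeptide precursors, Crhbp encodes a secreted protein that binds corticotropin-releasing hormone, and Dbh encodes dopamine beta-hydroxylase, the enzyme that makes noradrenaline. Crhbp therefore belongs to the peptide system without encoding a neuropeptide. Each gene of the table had passed the authors' cutoff, a false discovery rate below 0.1, in 1 or more of their 12 deposited comparisons, all among treated groups, and the 5 genes were picked with results of these libraries known. Their differences between treatments are therefore given as a description, with no test. Changes between days were tested where they are neither among these comparisons nor sums of them, and their p-values set a change against the spread between replicates rather than giving independent evidence for genes picked in this way.

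Bulk RNA was sequenced from 45 adherent cultures, 3 per group and, per the series' design text, from 3 independent differentiations. D0 was the undifferentiated line, whose name the labels do not give, and D3 was the neuromesodermal progenitor stage reached under bFGF and CHIR. Retinoic acid (RA) at 100 nM was added from day 3 in every later group. It was the only factor in the R groups. In the B groups 10 ng/ml BMP4 joined RA after the first 24 h, for another 24 h. In the M groups both were present from the start, for 48 h, so that BMP4 began earlier and lasted longer in M than in B. R4, R5, R7 and R9 are RA cultures of days 4, 5, 7 and 9, B5, B7 and B9 and M4, M5, M7 and M9 are named in the same way, and R6hr and B6hr were taken 6 h after day 4. M4 was thus taken after 24 h of both factors, and B6hr after 6 h of BMP4. By their titles, the cultures of days 7 and 9 were treated between days 3 and 5, so both days fell after treatment. For the R groups the protocol states both 48 h of RA and an interval ending on day 4, which differ by 1 day, and what it calls C is M in the titles. The titles, which were followed here, give 48 h for R5 and days 3 to 5 for R7 and R9.

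Neuropeptides are cut from larger precursors by prohormone convertases, packed into dense core vesicles and released to act on G protein-coupled receptors. In the dorsal spinal cord, dynorphin, enkephalin and tachykinin peptides mark sets of sensory interneurons. Noradrenaline is made from tyrosine through dopamine, by tyrosine hydroxylase, aromatic amino acid decarboxylase and then dopamine beta-hydroxylase, and its best-known neural sources are sympathetic neurons and the locus coeruleus.

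The values are the authors' normalized levels, which have no stated unit and no stated correction for gene length, so levels are compared between libraries and never between genes. Read depth is unknown, and the 11220 levels of a library added up to 12245725 at the lowest and 15868724 at the highest. Changes are differences of log2(level + 1), a scale on which genes at low levels change by less than their ratio. Trh was below a level of 10 in 1 of 45 libraries, but Pdyn was below it in 27, Tac2 in 30, Crhbp in 23 and Dbh in 29. All 5 genes passed the filter on low values. In D0, replicate 3 stood apart, with the pluripotency gene Pou5f1 at 22336 against 3064 and 2678, and in D3 replicate 1 stood apart, with a summed level of 7 caudal progenitor markers of 55872 against 9490 and 9507. Changes that rest on these libraries are given with and without them. Pan-neuronal markers, summed over 14 genes, ranged over 58019.9 to 77529.6 in B7 and 1722 to 2573 in M5, and 7 lateral mesoderm markers over 18675 to 23132 in M5 and 586 to 853 in R9. No marker was at 0 in any library. The pan-neuronal sum was 13818 to 22721 in undifferentiated D0, above that of M7 (3358 to 10918), so it does not track neurons alone. Each sum is led by its genes of highest level. Of 25 transcription factors of dorsal spinal interneurons, the labelled end point of the course, 10 rose and 2 fell from B5 to B7, 6 rose and 1 fell from M5 to M7, and 1 rose and 3 fell from R5 to R7. Of all 11220 genes, 15.8% rose and 15.4% fell from B5 to B7, 7.41% and 5.12% from M5 to M7, and 5.26% and 5.97% from R5 to R7.

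The sequences before the start sites of Trh and Tac2 are shown because these precursor genes followed the treatments differently: Trh was low on days 5 and 7 and high on day 9 in all 3 arms, and Tac2 was highest with combined treatment. Each is the 250 bases before the start in RefSeq's GRCm38.p6 promoter table, which held all 5 genes. Capitals mark 5 short motifs searched on both strands over windows of 250 bases before to 50 after the start. They are AGGTCA, the core bound by nuclear receptors such as those for RA, TGACG, part of the cyclic AMP response element, ATTA, a homeodomain core, CAGCTG, an E-box, and TATAAA, the TATA box. No 2 motifs overlapped in these 2 windows, and the 50 bases after each start held no match.
Trh, chr6:92244651-92244900, minus strand: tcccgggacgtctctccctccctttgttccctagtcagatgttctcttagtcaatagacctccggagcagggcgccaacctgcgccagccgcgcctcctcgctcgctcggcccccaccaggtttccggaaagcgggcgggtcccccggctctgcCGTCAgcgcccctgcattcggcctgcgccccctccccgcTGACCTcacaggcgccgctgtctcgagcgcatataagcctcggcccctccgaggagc
Tac2, chr10:127724228-127724477, plus strand: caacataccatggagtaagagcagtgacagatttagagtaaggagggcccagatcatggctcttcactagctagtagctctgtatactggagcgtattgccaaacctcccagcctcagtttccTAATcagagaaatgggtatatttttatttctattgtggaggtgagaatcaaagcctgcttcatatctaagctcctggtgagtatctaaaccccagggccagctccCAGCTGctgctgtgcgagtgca
The Trh sequence holds AGGTCA on the reverse strand at position -57 and TGACG on the reverse strand at -96, counted from the start to the leftmost base of the match. Tac2 holds CAGCTG at -22 and ATTA on the reverse strand at -127. The window of Dbh, which lies in the first exon of the GENCODE gene and is not printed, holds ATTA at -65, -147 and -157 and TGACG on the reverse strand at -222. The window of Crhbp holds AGGTCA at -152, TGACG on the reverse strand at -64, ATTA on the reverse strand at 3 positions and TATAAA 30 bases after the start. Pdyn has 2 listed starts, of which 1 window holds none of the motifs and the other holds ATTA at -58 and, on the reverse strand, at -129. Of 32851 promoter windows of this length, 16.3% hold AGGTCA, 20.8% TGACG, 58.0% ATTA, 16.3% CAGCTG and 13.6% TATAAA. These matches describe the letters alone.

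**Figure D1:**
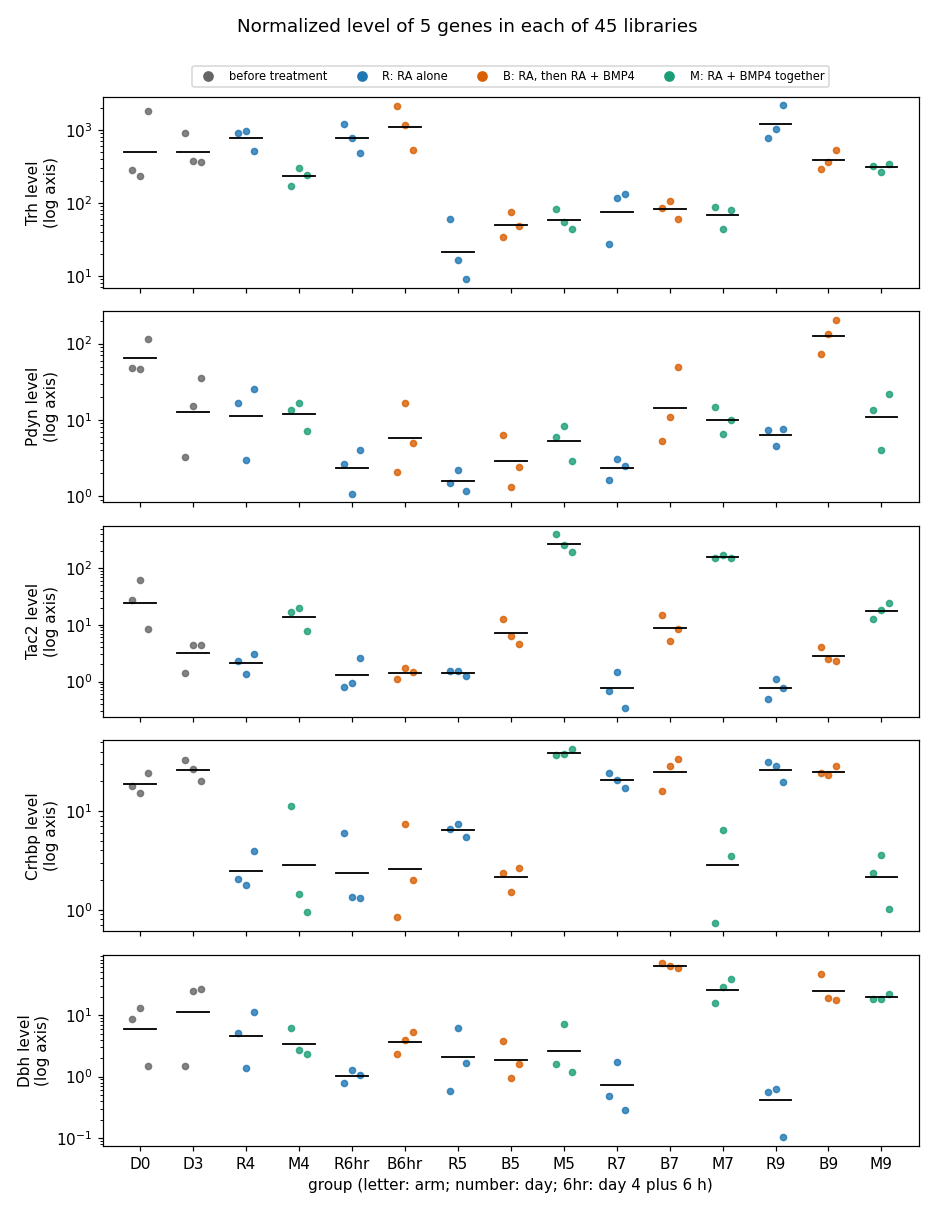
Level of each gene (log axis) in every library of the 15 groups, with black lines at the mean of log2(level + 1) turned back to a level. Trh is low in all 3 arms on days 5 and 7, Tac2 is highest in M5 and M7, and Dbh is highest in B7.

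Trh encodes the precursor of thyrotropin-releasing hormone (mm10 chromosome 6, 92242061 to 92244650, minus strand, protein-coding). Its level was above 100 in every library through day 4, below 100 in every library of day 5, and above 100 again in every library of day 9. In R4 it stood at 908, 969 and 513 in replicates 1, 2 and 3, in R6hr at 1211, 778 and 486 and in B6hr at 2116, 1173 and 531. On day 5 it stood at 59.6, 16.4 and 8.95 in R5, 33.6, 75.0 and 47.8 in B5 and 83.2, 53.8 and 43.1 in M5. The libraries of R5 and of B5 all lay below those of R4, and these differences, which are sums of comparisons the authors deposited, are described without a test (log2 difference -5.13, SE 0.65, and log2 difference -3.93, SE 0.65). In the authors' deposited table the step from R6hr to R5 had a log2 fold change of 4.87 (R6hr over R5) with a false discovery rate of 1.2e-09, the smallest of the 12 for Trh, and B6hr over B5 had 4.62 with 2.3e-09. On day 4 Trh was lower with combined treatment: M4 stood at 168, 299 and 245, below all R4 libraries (log2 difference -1.73, SE 0.65). On day 5 it was not, since M5 overlapped both other arms (log2 difference 1.43, SE 0.65 for M5 over R5).

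All M5 libraries lay below those of M4 (log2 difference -1.98, SE 0.65), a step that is also a sum of deposited comparisons and was not tested. On day 7 it stood at 27.6, 117 and 131 in R7, 86.3, 105 and 60.1 in B7 and 88.3, 43.6 and 80.0 in M7, and the 3 groups overlapped. The change from R5 to R7 did not pass in limma-trend (log2 change 1.80, SE 0.65, adjusted p = 0.0675), though it did without R5 replicate 1 (adjusted p = 0.0172) or R7 replicate 1 (0.0229). Neither other arm passed between these days (log2 change 0.71, SE 0.65, adjusted p = 0.423 in B, and log2 change 0.22, SE 0.65, adjusted p = 0.878 in M).

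On day 9 Trh stood at 780.4, 1041 and 2178 in R9, 288, 364 and 533 in B9 and 326, 262 and 346 in M9. Every day 9 library lay above every day 7 library of its arm. The rise passed in the R arm (log2 change 3.99, SE 0.65, adjusted p = 0.000111) and in the B arm (log2 change 2.21, SE 0.65, adjusted p = 0.0191), where it was lost without B7 replicate 3 (adjusted p = 0.0758) or B9 replicate 3 (0.0913). In the M arm it lay at the threshold (log2 change 2.18, SE 0.65, adjusted p = 0.0498). Replicate numbers paired these M libraries, and with the replicate block the adjusted p was 0.0606. Leaving out any 1 library there gave adjusted p = 0.078 to 0.182. R9 lay above B9 and M9 without overlap (log2 difference -1.66, SE 0.65 for B9 over R9, and log2 difference -1.97, SE 0.65 for M9 over R9). Whether the rise differed between arms was not tested.

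From R7 to R9 pluripotency markers rose with Trh. Over 6 markers the summed level was 829 to 2122 in R7 and 4667 to 9072 in R9, and 4 of the 6 rose (all genes 9.14%). Pou5f1 itself stood at 169, 558 and 513 in R7 and 1929, 1774 and 4146 in R9. Replicate 3 was the highest R9 library in both Pou5f1 and Trh. D0 replicate 3, which had the highest Pou5f1 of all 45 libraries, held Trh at 1817 against 282 and 233 in the other D0 libraries. In B9 the same marker sum was 4177 to 9379, against 2344 to 6589 in B7, and none of the 6 was called, while in M9 it was 829 to 1629, against 1270.0 to 4779.9 in M7. At other points the sum did not follow Trh. Where Trh fell from R6hr to R5, the sum was 606 to 808 in R6hr and 467 to 1003 in R5. The sum was higher in B7, with Trh at 60.1 to 105, than in R4 (1110 to 2307), with Trh at 513 to 969. For 7 caudal progenitor markers the summed level was 3813 to 6446.5 in R6hr and 1146 to 1843 in R5. It was 1062 to 1897 in R7 and 2763 to 4204 in R9, and 325 to 756 in M7 and 1115 to 1278 in M9. In B7 (1130 to 1810) and B9 (1709 to 2117) it overlapped. It did not follow Trh before treatment, at 148 to 1783 in D0 and 9490 to 55872 in D3, where Trh overlapped. The part of cells with pluripotency or caudal progenitor markers in the Trh levels was not tested. In bulk RNA fewer cells of a type and less RNA per cell cannot be told apart, here or for the genes below.

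Pdyn encodes prodynorphin, the precursor of the dynorphin opioid peptides (chromosome 2, 129686565 to 129699844, minus strand, protein-coding). Its level was highest in B9, at 72.5, 134 and 204. The undifferentiated cells came next, with 47.6, 47.0 and 116 in D0, and R5 was lowest with 1.48, 2.23 and 1.19. Every B9 library exceeded all R9 (7.32, 4.58 and 7.51) and M9 libraries (13.6, 4.05 and 21.6). The differences were 4.11 for B9 over R9 and -3.42 for M9 over B9 on the log2 scale (SE 0.74), and in the authors' deposited table R9 over B9 had a log2 fold change of -4.38 with a false discovery rate of 1.3e-05.

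Pdyn rose in the B arm at both late steps. From B5 (6.35, 1.32 and 2.42) to B7 (5.34, 10.8 and 49.0) it passed (log2 change 2.00, SE 0.74, adjusted p = 0.0388), but the 2 groups overlapped. Without B7 replicate 3, the highest of them, the change was 1.16 with adjusted p = 0.279. Leaving out B5 replicate 2 or 3 or B7 replicate 2 also ended the call (0.0519 to 0.144), as did the compared libraries alone (0.118), a pseudocount of 5 (0.054) and quantile normalization (0.0572). Every B9 library lay above every B7 library (log2 change 3.03, SE 0.74, adjusted p = 0.00568), and without B7 replicate 1 the adjusted p was 0.0575. In the R arm the day 9 libraries lay above those of day 7 (1.62, 3.12 and 2.48), without passing (log2 change 1.13, SE 0.74, adjusted p = 0.294), and in the M arm the days overlapped (log2 change 0.12, SE 0.74, adjusted p = 0.97). The pan-neuronal marker sum was 58019.9 to 77529.6 in B7 and 24329.6 to 30198 in B9, where 2 of 14 markers fell (all genes 8.13%) and 0 rose (6.10%).

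From D0 to D3 Pdyn fell (log2 change -2.25, SE 0.74, adjusted p = 0.0107), with D3 at 3.30, 15.2 and 35.6. That call depended on the libraries that stood apart: without D0 replicate 3 the change was -1.82 (adjusted p = 0.0656), and without D3 replicate 1 it was -1.41 (0.124). The compared libraries alone gave adjusted p = 0.0782. From D3 to day 4 the groups overlapped and no change passed.

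Tac2 encodes the precursor of neurokinin B (chromosome 10, 127724478 to 127731768, plus strand, protein-coding). It was high with combined treatment on days 5 and 7, with 396, 259.7 and 197 in M5, against 13.0, 6.37 and 4.57 in B5 and 1.52, 1.56 and 1.25 in R5. M7 held 154, 170.0 and 150.4, B7 15, 5.10 and 8.47 and R7 0.673, 1.45 and 0.337. On both days the 3 arms were apart in the order M, B, R. The log2 differences were 6.81 for M5 over R5, 5.04 for M5 over B5, 6.49 for M7 over R7 and 4.03 for M7 over B7 (SE 0.47), and in the authors' deposited table B5 over M5 was -5.15 with a false discovery rate of 2.5e-16. The R values are near a level of 1, so these differences move with the pseudocount: M7 over R7 was 7.62 with 0.1 added and 4.81 with 5 added.

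In the M arm the level grew over days 4 and 5 and later fell. From D3 (1.41, 4.45 and 4.35) to M4 (16.6, 20.1 and 7.81) Tac2 rose (log2 change 1.85, SE 0.47, adjusted p = 0.00283). Without D3 replicate 1, which stood apart, the change was 1.46 (adjusted p = 0.0237), and in the compared libraries alone the call was lost (0.0785). Every M5 library lay above every M4 library (log2 difference 4.20, SE 0.47, not tested). From M5 to M7 all 3 libraries were lower but the change did not pass (log2 change -0.78, SE 0.47, adjusted p = 0.307), and from M7 to M9 (12.5, 18.5 and 24.0) it fell (log2 change -3.09, SE 0.47, adjusted p = 0.000119). M9 still lay above B9 (4.04, 2.46 and 2.32) and R9 (0.484, 1.09 and 0.759). From B7 to B9 the change was -1.33 with adjusted p = 0.0536, and it passed with quantile normalization (0.026) or without B7 replicate 2 (0.0386).

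D0 held Tac2 at 27.2, 61.8 and 8.30, above all D3 libraries (log2 change -2.62, SE 0.47, adjusted p = 1.78e-05). The call held without D0 replicate 3 (log2 change -3.35) and without D3 replicate 1 (-2.24). The lateral mesoderm marker sum moved in the same direction as Tac2 across several M groups: it was 1242 to 2036 in D3, 10491 to 16619 in M4, 18675 to 23132 in M5, 10503 to 15607 in M7 and 5659 to 10826 in M9. Of the 7 markers 6 rose from D3 to M4 (all genes 14.9%), and 0 passed in either direction from M5 to M7 (12.5%) or from M7 to M9 (4.00%). In the B arm the 2 did not move together. The marker sum was 4669.5 to 7687 in B5 and 1318 to 2138 in B7, and 5 of the 7 markers fell (all genes 15.4%). Tac2 overlapped between B5 and B7. The part of cells with lateral mesoderm markers in the Tac2 level was not tested.

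**Figure D2:**
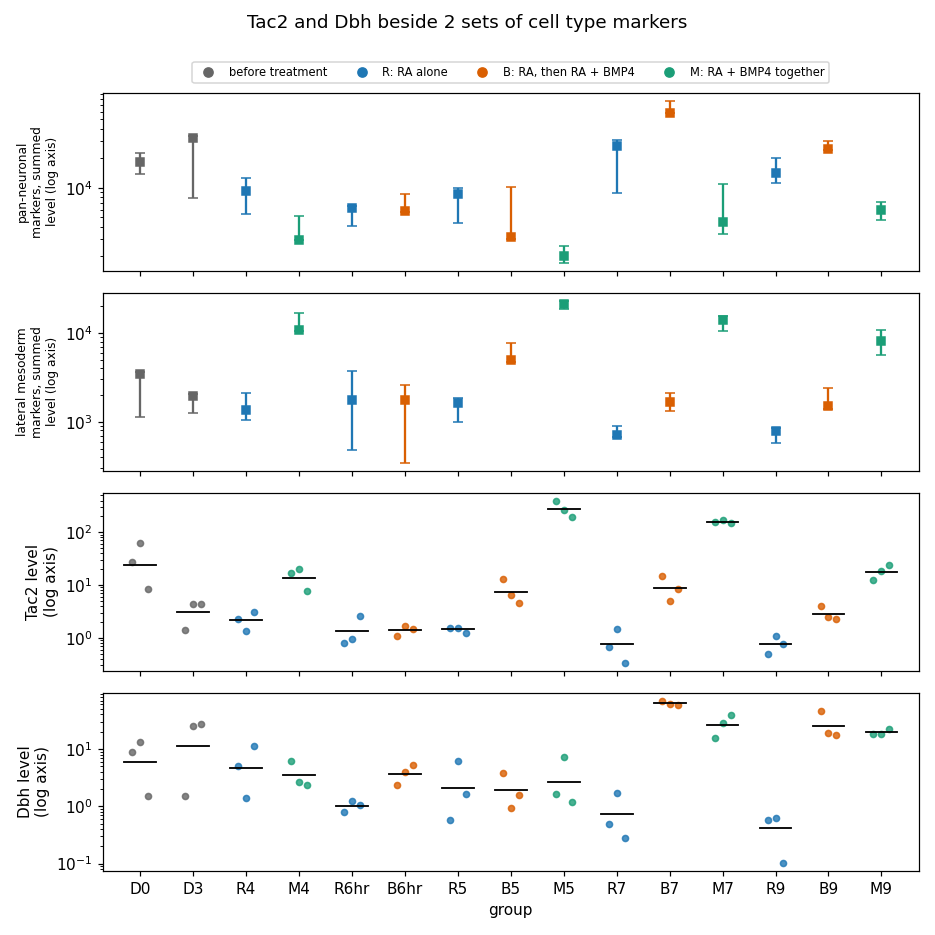
Summed level of 14 pan-neuronal and 7 lateral mesoderm markers in each group (log axes; square, median of 3 libraries; bar, lowest to highest), above the level of Tac2 and Dbh in each library with lines at group means of log2(level + 1). The lateral mesoderm sum and Tac2 are both highest in M5, but that sum is lower in B7 than in B5 while Tac2 overlaps. The pan-neuronal sum and Dbh are both highest in B7, while Dbh is also high in M7, where the pan-neuronal sum is 3358 to 10918.

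Crhbp (chromosome 13, 95431371 to 95444924, minus strand, protein-coding) encodes a protein that holds corticotropin-releasing hormone and urocortin away from their receptors. It fell from D3 to day 4, was highest in M5, and was low in the M arm and high in the other arms on days 7 and 9. D3 held 33.0, 26.9 and 20.0, R4 2.05, 1.79 and 3.92 and M4 11.3, 1.44 and 0.942. The fall from D3 passed in R4 (log2 change -2.97, SE 0.54, adjusted p = 9.08e-05) and M4 (log2 change -2.81, SE 0.54, adjusted p = 0.000132), and without D3 replicate 1 the changes were -2.80 and -2.64, both still called. In the compared libraries alone the M4 call was lost (adjusted p = 0.0661).

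In the M arm Crhbp peaked on day 5, at 36.7, 38.1 and 42.6, the highest group of all and above every M4 library (log2 difference 3.37, SE 0.54, not tested). R5 held 6.55, 7.40 and 5.45 and B5 2.37, 1.52 and 2.67, so the 3 arms were apart in the order M, R, B. On day 7 the M arm was lowest, with M7 at 0.741, 6.40 and 3.49, below every library of R7 (24.1, 20.8 and 17.2) and B7 (16.1, 28.8 and 34.0). From day 5 to day 7 it fell in the M arm (log2 change -3.37, SE 0.54, adjusted p = 5.24e-05) and rose in the B arm (log2 change 3.05, SE 0.54, adjusted p = 7.54e-05). In the R arm all 3 day 7 libraries lay above day 5 without passing (log2 change 1.53, SE 0.54, adjusted p = 0.0599), and the change passed with a pseudocount of 5 (adjusted p = 0.0117). On day 9 each arm overlapped its day 7 levels, with 31.5, 28.3 and 19.7 in R9, 24.1, 22.9 and 28.4 in B9 and 2.38, 3.62 and 1.01 in M9, and no arm changed past the threshold. M9 lay below both other arms without overlap, by a log2 difference of -3.04 over B9 and -3.10 over R9. In the authors' deposited table the smallest false discovery rate for Crhbp, 8.8e-13, was that of B5 over M5 (log2 fold change -4.11).

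Dbh (chromosome 2, 27165233 to 27183200, plus strand, protein-coding) was low in every treated group through day 5 and then high where BMP4 had been given. On day 5 it stood at 0.583, 6.12 and 1.65 in R5, 3.80, 0.941 and 1.59 in B5 and 1.62, 7.29 and 1.17 in M5, with overlap. On day 7 B7 held 69.4, 61.9 and 59.1, M7 15.6, 28.5 and 39.4 and R7 0.482, 1.74 and 0.283, and the 3 arms were apart. The rise from day 5 passed in the B arm (log2 change 4.48, SE 0.71, adjusted p = 1.75e-05) and the M arm (log2 change 2.90, SE 0.71, adjusted p = 0.00492), while R did not change past the threshold (log2 change -0.84, SE 0.71, adjusted p = 0.483). On day 9 B9 held 46.5, 19.2 and 17.5, M9 18.3, 18.4 and 22.2 and R9 0.573, 0.628 and 0.103, with B9 and M9 overlapping and both above R9. No arm changed past the threshold between days 7 and 9, and all 3 B9 libraries lay below those of B7 (log2 change -1.30, SE 0.71, adjusted p = 0.228).

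The R9 libraries were all below a level of 1, so the size of a difference from them depends on the pseudocount. B9 over R9 was 4.20 (SE 0.71), 5.76 with 0.1 added and 2.48 with 5 added. The authors' deposited table gives R7 over B7 a log2 fold change of -6.07 with a false discovery rate of 1.4e-09 and R9 over B9 -5.65 with 1.3e-06. Before treatment Dbh stood at 8.71, 13.2 and 1.5 in D0 and 1.52, 25.2 and 26.8 in D3. D3 replicate 1, which stood apart, was low. Without it the changes were 1.94 from D0 to D3 (adjusted p = 0.0139), -2.26 from D3 to R4 (0.0083) and -2.60 from D3 to M4 (0.00236), and with it none passed (0.348, 0.264 and 0.114). Pan-neuronal markers rose with Dbh in the B arm, where 13 of 14 rose from B5 to B7 and 0 fell, and in the M arm 5 of 14 rose from M5 to M7. Of all genes 15.8% rose and 15.4% fell from B5 to B7, and 7.41% rose from M5 to M7. Neural crest and Schwann markers, of which 2 of 7 rose and 1 fell in the B arm, summed to 3737 to 6890.0 in B5 and 4801 to 4989 in B7. Their part in the Dbh level was not tested.

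**Figure D3:**
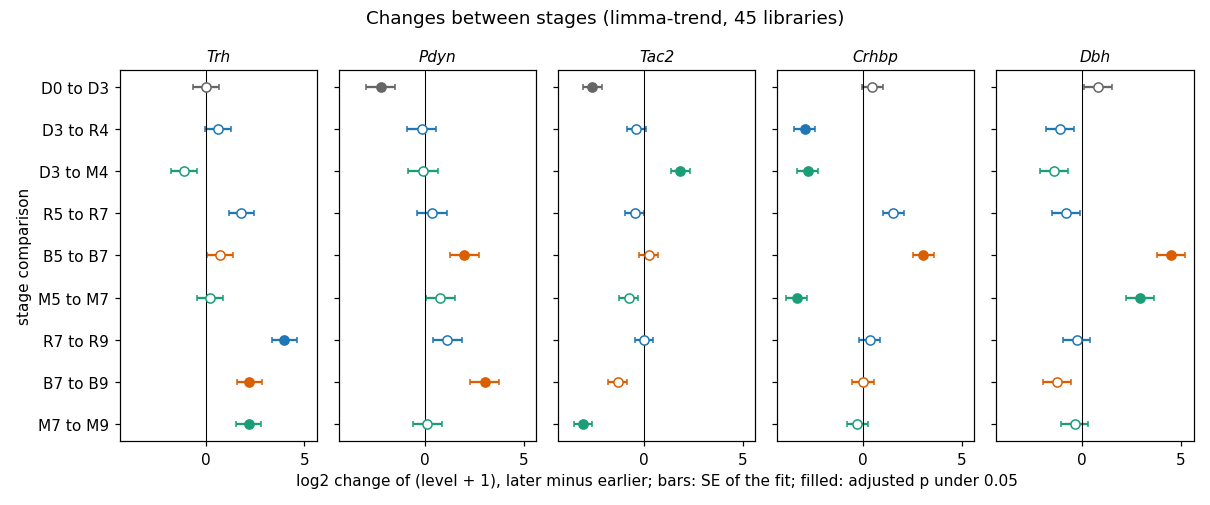
Log2 change of level + 1 between stages for the 5 genes, with the SE of the fit as bars, filled where the adjusted p is under 0.05. Trh rises from day 7 to 9 in the R and B arms and lies at the threshold in the M arm, and Crhbp moves up in the B arm and down in the M arm from day 5 to 7.

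Across the 9 tested steps, the number of the 5 genes that passed was 0 to 3, and it has to be read against how often any listed gene passed. From D0 to D3, 2 of 5 passed, where 54.9% of the 11220 genes did. From D3 to R4 it was 1 (all genes 24.3%) and from D3 to M4 2 (all genes 32.6%). From day 5 to 7 it was 0 in the R arm in limma-trend (2 at an unadjusted p under 0.05, and 1 with a pseudocount of 5; all genes 11.2%), 3 in the B arm (31.2%) and 2 in the M arm (12.5%). From day 7 to 9 it was 1 in the R arm (20.3%), 2 in the B arm (14.2%) and 2 in the M arm (4.00%). The median change of the 5 from B5 to B7 was 2.00, against -0.02 over all genes. With 5 genes picked on these libraries, a count above the background is a description of the pick.

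Between arms, the count of genes whose libraries did not overlap is a description too, since the pick used these comparisons. On day 4 it was 2 of 5 between M4 and R4, against 26.1% of all genes, and 1 between B6hr and R6hr (31.6%). On day 5 it was 2 between B5 and R5 (21.6%), 3 between M5 and R5 (55.4%) and 2 between M5 and B5 (31.6%). On day 7 it was 3 between B7 and R7 (40.2%), 4 between M7 and R7 (48.0%) and 3 between M7 and B7 (51.4%). On day 9 it was 4 between B9 and R9 (35.3%), 4 between M9 and R9 (63.2%) and 3 between M9 and B9 (63.4%). The gene apart 6 h after BMP4 was Dbh, at 0.789, 1.26 and 1.08 in R6hr and 2.38, 3.98 and 5.26 in B6hr, all low levels. From R4, 3 were apart in R5 (29.9%) and 2 in B5 (23.8%), and from M4, 3 were apart in M5 (27.4%; 5 without M5 replicate 2).

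Ordered by level, neighbouring groups mostly overlapped. For Trh the order ran from R9, B6hr, R6hr and R4 down to R5, and 1 of 14 neighbouring pairs was apart, M4 above B7. For Pdyn 0 of 14 pairs were apart, although B9 headed the order. Tac2 had 3 such gaps, of M5 above M7, M7 above D0, and B5 above D3. Crhbp had 2, of M5 above D3, and D0 above R5, so that M5, D3, R9, B7, B9, R7 and D0 form a high set and the other 8 groups a low one. Dbh had 1, B7 above M7.

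Of the partner genes, Trhr, Trhr2, Crh, Ucn, Crhr1, Crhr2 and Tac1 were not among the genes listed under the authors' cutoff, so they have no level here. Absence from that list does not show a lack of expression. Trhde, whose product degrades thyrotropin-releasing hormone, rose from B5 (6.79, 6.14 and 9.11) to B7 (38.1, 46.4 and 63.4; log2 change 2.58, SE 0.70, adjusted p = 0.00526), on the days when Trh itself was low. Oprk1 encodes the kappa opioid receptor, which dynorphin activates, and it fell in the B arm at the steps where Pdyn rose. It fell from B5 (19.0, 26.4 and 43.6) to B7 (10.8, 7.28 and 4.85; log2 change -1.81, SE 0.45, adjusted p = 0.0026) and again to B9 (3.76, 1.13 and 2.16; log2 change -1.38, SE 0.45, adjusted p = 0.0343). M7, with 55.5, 90.4 and 112, lay above both other arms of day 7. Tacr3, the neurokinin B receptor gene, passed in none of the 9 tested steps. Its levels were 2.48, 4.61 and 6.56 in M5, where Tac2 was highest, and 33.8, 40.9 and 21.3 in R9, where Tac2 was lowest. Tacr3 was low as well in R6hr (4.58, 4.38 and 13.6), where Tac2 was also low, so the 2 genes were not opposed throughout. Penk, the enkephalin precursor gene, rose from day 7 to 9 in the R arm (log2 change 3.66, SE 0.43, adjusted p = 1.92e-06) and the B arm (log2 change 3.47, SE 0.43, adjusted p = 2.8e-06). In the M arm it did not pass, though every M9 library (88.3, 80.2 and 110) lay above every M7 library (30.1, 43.3 and 43.7). It stood at 121, 197 and 224 in B9 and 104, 169 and 190.0 in R9, so that for Penk the 2 groups overlapped, while for Pdyn they were apart.

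Th, Ddc, Pnmt, Slc18a2 and Slc6a2 of the noradrenaline pathway passed at other steps than Dbh. Th, tyrosine hydroxylase, passed in 1 of the 9 steps, a fall from D0 to D3 (log2 change -1.06, SE 0.42, adjusted p = 0.0301). It stood at 19.4, 19.2 and 6.91 in R7, 36.2, 36.0 and 34.6 in B7 and 9.42, 16.5 and 15.9 in M7, and at 65.9, 95.7 and 80.7 in B9, above R9 (31.1, 18.7 and 23.0) and M9 (18.8, 12.8 and 20.8). Ddc, aromatic amino acid decarboxylase, rose from D3 (55.5, 139.7 and 208) to M4 (487, 393 and 246; log2 change 1.61, SE 0.55, adjusted p = 0.0224) and stood at 1351, 1396 and 994 in M5, where Dbh was low. Pnmt, which turns noradrenaline into adrenaline, stood at 47.6, 62.3 and 51.0 in M5, 87.0, 81.1 and 63.3 in M7 and 1.78, 4.51 and 5.18 in B7, and fell from M7 to M9 (log2 change -2.70, SE 0.46, adjusted p = 0.000409). Slc18a2, the vesicular monoamine transporter, fell from B7 to B9 (log2 change -2.05, SE 0.52, adjusted p = 0.0072), and Slc6a2, the noradrenaline transporter, rose from R7 to R9 (log2 change 2.00, SE 0.53, adjusted p = 0.00726), where Dbh was lowest.

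Phox2a encodes a paired homeodomain factor of noradrenergic neurons. It was highest in M5, at 608, 609 and 579.8, when Dbh was low there, against 108, 116 and 81.4 in M4, and it fell to 91.2, 114 and 109 in M7 (log2 change -2.51, SE 0.23, adjusted p = 3.93e-09) as Dbh rose. From B5 to B7 it rose too (log2 change 0.75, SE 0.23, adjusted p = 0.0127).

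The wider peptide and catecholamine genes came from 7 lists of 172 genes without the 5, of which 103 genes besides the 5 were in the table. From B5 to B7, 36 of the 103 rose and 15 fell, with a median log2 change of 0.62 against -0.02 over all genes. Of all 11220 genes 15.8% rose and 15.4% fell at this step, so the share of the 103 that fell was near that of all genes. Among 23 neuropeptide precursors, Pdyn included, 7 rose and 0 fell, with Adm, the adrenomedullin gene (2.84, adjusted p = 0.00057), Cck, cholecystokinin (2.18, adjusted p = 0.0011), Cartpt, the CART peptide gene (3.65, adjusted p = 0.01), and Npy, neuropeptide Y (2.01, adjusted p = 0.028), among the risen. Among 15 genes of peptide processing and dense core vesicles 8 rose and 0 fell. They included the granins Chga (2.78, adjusted p = 2.3e-07) and Scg2 (3.40, adjusted p = 0.0023), the vesicle protein Ptprn (2.39, adjusted p = 4.6e-07), the convertase inhibitor precursor Pcsk1n (2.87, adjusted p = 0.00019) and the convertase Pcsk2 (log2 change 2.44, SE 0.65, adjusted p = 0.00475). The convertase Pcsk1 stood at 16.7, 35.3 and 43.0 in B5 and 33.9, 52.5 and 27.0 in B7. Among 10 genes of peptide degradation 6 rose and 2 fell, with a median log2 change of 0.78. The same step raised 13 of 14 pan-neuronal markers, and their part in these counts was not tested.

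The receptors were divided. Beside the counts of this paragraph, 15.8% of all 11220 genes rose and 15.4% fell from B5 to B7. Among 27 neuropeptide receptors 7 rose and 7 fell from B5 to B7, with the somatostatin receptors Sstr3 (3.10, adjusted p = 8.3e-05) and Sstr2 (2.19, adjusted p = 0.00056) risen and the neurotensin receptor Ntsr1 (-3.33, adjusted p = 8.6e-08) and the delta opioid receptor Oprd1 (-1.87, adjusted p = 0.00039) fallen. Among 8 adrenergic receptors 3 rose and 1 fell, with Adra1d (2.20, adjusted p = 0.00026) and Adrb1 (1.27, adjusted p = 0.0043) higher and Adra2b (-1.68, adjusted p = 0.0027) lower. Among 13 genes of catecholamine synthesis and transport, Dbh included, 2 rose and 3 fell. The share of these that rose, and that of the adrenergic receptors that fell, were near those of all genes. Gch1, which makes the cofactor of tyrosine hydroxylase, rose (1.05, adjusted p = 0.0014), and the monoamine oxidase genes Maob (-2.27, adjusted p = 0.0013) and Maoa (-0.43, adjusted p = 0.0024) fell. Among 11 transcription factors linked to noradrenergic neurons 5 rose and 2 fell. Tlx2 (4.96, adjusted p = 2.5e-06), Insm1 (3.98, adjusted p = 0.00018) and Tlx3 (3.92, adjusted p = 0.00019) rose and Gata3 (-3.16, adjusted p = 0.0011) fell. Tlx3 is also a factor of dorsal spinal interneurons.

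From day 5 to day 7 in the R arm 8 of the 103 genes rose and 4 fell, where 5.26% of all genes rose and 5.97% fell. In the M arm 13 rose and 4 fell, where 7.41% of all genes rose and 5.12% fell. In the M arm the natriuretic peptide gene Nppa rose (4.11, adjusted p = 1.7e-05), the somatostatin receptor Sstr4 rose (3.76, adjusted p = 3.1e-05) and the neuropeptide Y receptor Npy1r fell (-2.60, adjusted p = 3e-05).

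From day 7 to day 9 in the R arm 6 rose and 1 fell of the 23 precursors, Trh among the risen, where 9.14% of all genes rose and 11.1% fell, with a median of 0.56 against -0.03 over all genes. Besides Trh and Penk these were led by Npy (3.41, adjusted p = 0.00097) and Grp, gastrin-releasing peptide (1.71, adjusted p = 0.022). In the B arm 3 rose and 1 fell: Penk, Pdyn and Trh rose and Cck fell (-2.75, adjusted p = 0.00031). In the M arm Trh lay at the threshold (adjusted p = 0.0498, and 0.0606 with the replicate block), and Tac2, Nppa (-3.47, adjusted p = 0.0005), Cck (-2.30, adjusted p = 0.005) and Nppb (-2.05, adjusted p = 0.035) fell. Of the 103 genes 12 rose and 3 fell in the R arm, 5 and 5 in the B arm, and 1 and 5 in the M arm, where 6.10% and 8.13% of all genes rose and fell in the B arm and 2.40% and 1.60% in the M arm.

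**Figure D4:**
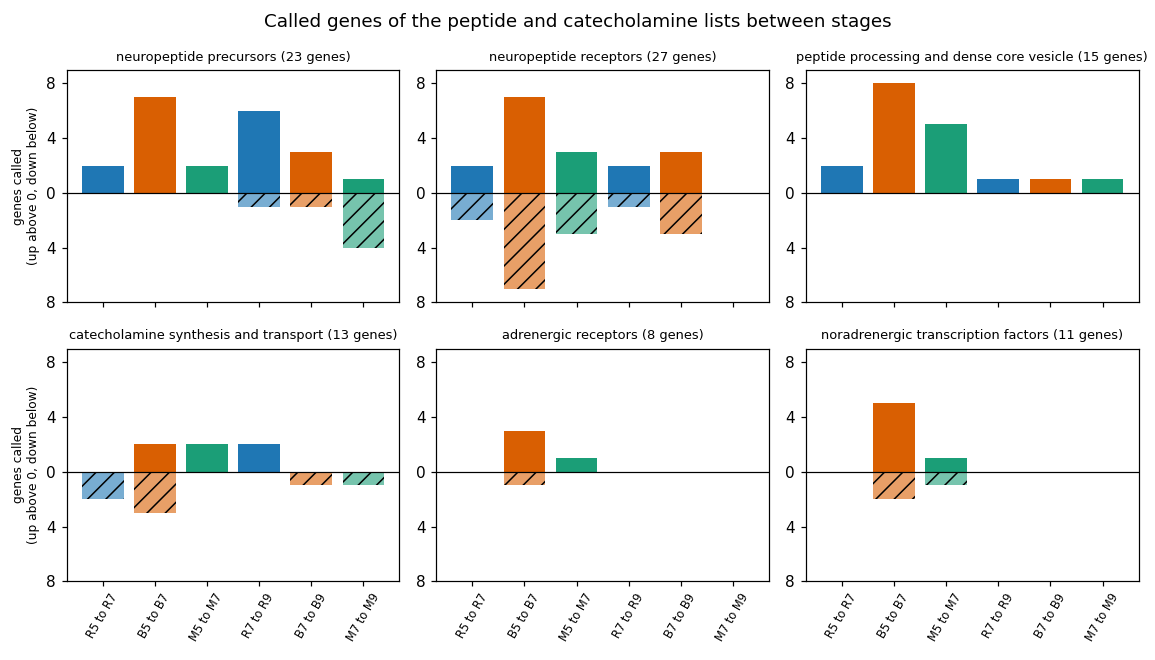
Number of genes called higher (bars above 0) or lower (hatched, below 0) at 6 steps in 6 lists, members included, at an adjusted p under 0.05. The B5 to B7 bars are the tallest in the processing list, with 8 risen and 0 fallen.

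The genes most like each of the 5 across the 45 libraries were named by Pearson's r of log2(level + 1). The libraries share culture conditions and differentiations, so r describes a likeness of levels and no more. For Tac2 they were Popdc2 (0.96), F2r (0.94) and Spin1 (0.93). Mean Popdc2 was 223 in M5, 276 in M7 and 30.0 in M9, against 3.54 in R7. For Dbh they were Upk1b (0.93), a uroplakin gene, Tgm7 (0.91) and Ppp1r1c (0.88), and mean Upk1b was 84.5 in B7, 101 in M7 and 1.13 in R7. For Pdyn they were Nrn1 (0.87), the neuritin gene, Atp1b2 (0.86) and Fgf1 (0.86), with mean Nrn1 at 183 in B9 and 22.1 in R9. For Trh they were Plcb4 (0.86), Cbr3 (0.84) and the ribosomal protein gene Rpl5 (0.84), and for Crhbp Atp6v1d (0.78), Acvr1b (0.77) and Fam183b (0.77). Among themselves the 5 genes were less alike: r ran from -0.39 between Trh and Tac2 to 0.56 between Pdyn and Dbh.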

How the data were processed

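The 45 libraries were prepared with NuGEN's mRNA kit and read on a NovaSeq instrument, per the labels' protocols. The submitters' processing notes name mm10, Picard and edgeR, with no role. Which aligner, counter and annotation were used was not given in the sources used here. Normalized levels, deposited by the authors in no stated unit, were taken as a signal. Of them 0 are 0 and 1 is whole, with no tolerance, so reads and depth could not be recovered. A score, the authors' columns headed fpkm and a rank, was left out. The log2 fold changes, p-values and false discovery rates of 12 comparisons are quoted as the authors' own deposited values.

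Changes were fitted with limma-trend (limma 3.58.1, R 4.3.3, robust) on log2(level + 1), with 15 group coefficients, 1 shared spread and Benjamini-Hochberg adjustment over 11220 genes, called under 0.05. Requiring a level of 1 in 3 libraries removed 0 genes. The members and lists were chosen with earlier results of these data known. R5 and B5 against R4 and M5 against M4 had been planned as tests and are described instead, being sums of deposited comparisons. Named genes are the 5, the 3 most like each, their partners and up to 4 called genes of smallest adjusted p per list and step. Pou5f1 is named as a marker. A gene that the rule would name is not reported here. Numbers were taken to pair libraries where all 3 same-number correlations of deviations exceeded 0.1: R9 with R7 (0.506, 0.323 and 0.736), M9 with M7 (0.254, 0.279 and 0.269) and B6hr with R6hr (0.586, 0.189 and 0.465). What a number marks is not in the labels. The p-values rest on the spread between cultures of a group, pooled for each gene over all 15 groups, and not on that of the compared groups alone. For Pdyn the SD of log2(level + 1) was 0.29 in R5 and 1.53 in B7. The series' design text calls the cultures independent differentiations, and their spread may be partly technical. For B9 against B7, simulated over 11220 genes, 54% of changes of 1 and 92% of changes of 2 in log2(level + 1) were found, with 9 false calls. The simulation drew independent normal noise around each gene's mean, without libraries that stand apart. Its shares therefore need not hold for the 5 genes. The alternatives tried were a replicate block, only the libraries compared, leaving out each library, adding 0.1 or 5 in place of 1, no filter, quantile normalization and a 0.01 threshold. Gene coordinates come from GENCODE M21 (mm10), in which no other gene overlaps the 5. Python 3.11.15, pandas 2.3.3 and matplotlib 3.10.9 made the tables and plots.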

Additional observations from a re-analysis of the deposited data

Results flagged for a closer look

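Crhbp moved in opposite directions between days 5 and 7 in different arms. On the log2 scale its level changed by 1.534 in the R arm and 3.053 in the B arm, where every library of day 7 lay above every library of day 5, and by -3.373 in the M arm, where every library of day 7 lay below. The difference between arms was not tested, because it is made of comparisons on which the listed genes were selected.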

How the results depend on the processing

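Directions of the called changes were kept in every alternative run, and no called change reversed. Of the 5 genes, the number that passed from D0 to D3 was 1 in the compared libraries alone and 1 at a threshold of 0.01, and from D3 to M4 it was 0 in the compared libraries alone. It was 1 from R5 to R7 with a pseudocount of 5, and 1 from B7 to B9 at a threshold of 0.01. From M7 to M9 it was 1 with the replicate block, 1 with a pseudocount of 0.1, 1 with quantile normalization and 1 at a threshold of 0.01. The block changed no other call of the 5.

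Of the 103 list genes, the compared libraries alone called 11 from D3 to R4 (17 in the fit of all libraries), 17 from D3 to M4 (41), 2 from R5 to R7 (12), 8 from R7 to R9 (15) and 21 from B7 to B9 (10). A threshold of 0.01 called 6 from R5 to R7, 10 from M5 to M7, 5 from R7 to R9, 3 from B7 to B9 and 3 from M7 to M9. The cause was not tested.

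Leaving out 1 library, the number of the 5 that passed ranged from 1 to 2 for D0 to D3 (1 without D0 replicate 3), 1 to 2 for D3 to R4 (2 without D3 replicate 1), 2 to 3 for D3 to M4, 0 to 1 for R5 to R7 (1 without R5 replicate 1 or R7 replicate 1), 2 to 3 for B5 to B7, 2 to 2 for M5 to M7, 1 to 1 for R7 to R9, 1 to 3 for B7 to B9 (1 without B7 replicate 1, B7 replicate 3 or B9 replicate 3) and 1 to 1 for M7 to M9, whichever library was left out. List genes called ranged, in the same order, over 43 to 51, 13 to 37 (37 without D3 replicate 1), 32 to 49, 7 to 12, 34 to 51, 10 to 15, 5 to 11, 4 to 10 and 3 to 5. These fell by more than 1.5 times without R5 replicate 3, R7 replicate 1 or R7 replicate 2 (7 for R5 to R7), M5 replicate 2 (11) or M7 replicate 2 (10 for M5 to M7), R7 replicate 1, R9 replicate 1 (7 each) or R9 replicate 3 (5 for R7 to R9), B7 replicate 1, B9 replicate 2 (4 each) or B9 replicate 3 (5 for B7 to B9), and M7 replicate 1 or 2 or M9 replicate 1 or 3 (3 for M7 to M9). Genes apart ranged over 2 to 3 for M4 and R4, 1 to 2 for B6hr and R6hr (2 without B6hr replicate 1 or R6hr replicate 3), 2 to 3 for B5 and R5, 3 to 4 for M5 and R5, 2 to 3 for M5 and B5, 3 to 4 for B7 and R7, 4 to 5 for M7 and R7, 3 to 3 for M7 and B7, 4 to 4 for B9 and R9, 4 to 5 for M9 and R9, 3 to 4 for M9 and B9, 3 to 5 for M5 and M4 (5 without M5 replicate 2), 3 to 4 for R5 and R4, and 2 to 4 for B5 and R4 (4 without R4 replicate 2). Depth is unknown, and for Pdyn, Tac2, Crhbp and Dbh most or many libraries were below a level of 10, where differences depend on the pseudocount.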
